A study of Homo sapiens with 8 samples.

Results

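The genes described here are 9 genes of antigen presentation by the major histocompatibility complex (MHC): CD74, HLA-DRA, HLA-DRB1, HLA-DMA and CIITA for class II, and HLA-B, HLA-C, B2M and NLRC5 for class I. They were chosen by name, from earlier readings of these same libraries, and each of the 9 matched 1 of the 20165 gene regions in the deposited tables through its transcripts. Because the choice rests on the same counts, their values in the comparisons below are descriptions and carry no test.

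OVCAR3, an established line of human ovarian cancer, was studied by ribosome profiling (Ribo-seq). In Ribo-seq the mRNA fragments that ribosomes shield from RNase are sequenced, so the footprints on a coding sequence depend on the amount of the mRNA as well as on how heavily it is translated, and these counts alone cannot tell the amount from the translation. One experiment asked which mRNAs depend on mono-ADP-ribosylation (MARylation) of RACK1, a protein of the small ribosomal subunit, and the other asked what happens when the hydrolase TARG1 (OARD1 gene) is depleted. There were 4 groups of 2 libraries.

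RACK1-WT cells carried an inducible knockdown of their own RACK1 together with an inducible, HA-tagged wild type RACK1, and RACK1-Mut cells carried the same knockdown with a RACK1 whose MARylation sites were changed from aspartate and glutamate to asparagine and glutamine. Both of these groups were given 1 µg/ml doxycycline. The siControl and siTARG1 cells received 30 nM of a control siRNA or of siRNA against OARD1, with no RACK1 vector and no doxycycline. All cells were harvested 48 h after doxycycline or transfection. The RACK1 lines were made by lentiviral transduction and selection, and whether they were clones was not given in the sources used here. The methods describe the sequencing replicates as independent biological samples, which the labels of the libraries do not restate.

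Coding sequences held 3100947 to 6604190 footprints per library, most in RACK1-WT. OARD1 had normalized counts of 121.3 and 69.1 in siControl and 5.83 and 6.75 in siTARG1. RACK1, whose counts do not separate the cell's own mRNA from the re-expressed one, had 23334 and 23594 in RACK1-WT against 17745 and 17274 in RACK1-Mut, so the RACK1 groups also differed in the footprints on RACK1 itself. Its part in the results below was not tested. Of 9 markers of ovarian epithelial carcinoma, all were present in every library, with summed counts of 26929 to 71244. Of 12 markers of professional antigen-presenting and blood cells, 11 had at most 3 counts in any library. PTPRC, the pan-leukocyte CD45, had 0 to 2 counts, and the B cell gene MS4A1, the T cell gene CD3E and the myeloid gene LYZ had 0 throughout. The exception was CD14, a co-receptor for bacterial lipopolysaccharide, with normalized counts of 5.27 and 5.96 in siControl, 11.7 and 19.1 in siTARG1, 34.8 and 40.9 in RACK1-WT and 35.8 and 29.0 in RACK1-Mut.

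MHC class I molecules consist of a heavy chain, such as HLA-B or HLA-C, and the light chain B2M. They are made by nearly all nucleated cells and show peptides cut from cytosolic proteins to CD8+ T cells and natural killer cells. MHC class II molecules, such as the pair of HLA-DRA and an HLA-DRB chain, show peptides from the endosomal route to CD4+ T cells. CD74, the invariant chain, blocks the class II groove and guides the molecule to endosomes, where HLA-DM exchanges the last piece of CD74 for a peptide. CIITA and NLRC5 are transactivators without DNA-binding domains of their own that are recruited to a conserved promoter module, which ends in a Y box bound by the NF-Y complex. CIITA is best known for the class II genes and NLRC5 for the class I genes. Interferon gamma induces both. Class II is typical of professional antigen-presenting cells, but carcinoma cells can also make it.

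The Y box is part of that promoter module, so the 130 bases before the RefSeq start site (GRCh38.p14) are shown for the 6 members with an entry. Each is written 5′ to 3′ on the gene's strand, in lower case, with capitals for CCAAT, the core of the Y box, or for ATTGG, the same letters read on the other strand. CD74 lies at chr5:150412911-150413040, HLA-DRB1 at chr6:32589849-32589978, HLA-DMA at chr6:32953098-32953227, HLA-B at chr6:31357180-31357309 and HLA-C at chr6:31272093-31272222, all on the minus strand, and B2M lies at chr15:44711387-44711516 on the plus strand.
CD74: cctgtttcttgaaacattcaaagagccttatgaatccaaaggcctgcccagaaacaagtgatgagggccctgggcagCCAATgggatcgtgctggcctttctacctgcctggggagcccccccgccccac
HLA-DRB1: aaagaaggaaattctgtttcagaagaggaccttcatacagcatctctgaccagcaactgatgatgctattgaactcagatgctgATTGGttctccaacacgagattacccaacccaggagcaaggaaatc
HLA-DMA: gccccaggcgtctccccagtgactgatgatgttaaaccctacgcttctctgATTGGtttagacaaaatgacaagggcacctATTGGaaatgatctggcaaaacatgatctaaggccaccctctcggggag
HLA-B: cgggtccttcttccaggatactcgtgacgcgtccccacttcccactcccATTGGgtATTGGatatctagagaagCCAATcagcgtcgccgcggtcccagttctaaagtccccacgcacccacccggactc
HLA-C: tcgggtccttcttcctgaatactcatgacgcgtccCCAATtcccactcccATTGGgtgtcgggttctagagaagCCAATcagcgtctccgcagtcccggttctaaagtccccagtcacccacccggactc
B2M: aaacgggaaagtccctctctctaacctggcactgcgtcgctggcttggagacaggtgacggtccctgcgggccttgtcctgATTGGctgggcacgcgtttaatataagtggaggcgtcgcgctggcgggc

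On either strand, CCAAT was found in 6 of these 6 promoters over the whole 300 bases of an entry, which run from 250 before to 50 after the start, against 35.7% of all 27305 promoters of that length. The match nearest to the start began 53 bases before it in CD74, 46 in HLA-DRB1, 49 in HLA-DMA, 56 in HLA-B and HLA-C, and 49 in B2M. HLA-B held 3 matches and HLA-C held 4, of which the first lies outside the stretch shown. TTCNNNGAA, the palindrome that STAT dimers bind, was in 0 of 6 member promoters, and so overlapped no CCAAT there, and in 7.88% of all. HLA-DRA, CIITA and NLRC5 had no entry. These matches describe letters, not bound sites, and which match in a promoter is its Y box was not determined.

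Per length, B2M had the most footprints of the 9 genes in each group (unit: coding counts per kb of coding sequence in a library scaled to 1000000 coding counts, called density here). Its density was 1939 ± 32.6 in siControl, 2955 ± 156.2 in siTARG1, 1969 ± 45.2 in RACK1-WT and 1834 ± 66.9 in RACK1-Mut (mean ± SD, n = 2). HLA-C came next, with 323.4 ± 26.2 in siControl and 604.5 ± 8.22 in siTARG1, followed by CD74 with 236.0 ± 16.0 and 354.5 ± 23.7, and then by HLA-B with 140.2 ± 27.9 and 243.7 ± 12.5. In RACK1-WT the order was the same, at 534.0 ± 50.5 for HLA-C, 357.0 ± 12.5 for CD74 and 224.4 ± 21.3 for HLA-B. In these 8 libraries no value of one of these 4 genes reached into the range of its neighbour within a group. Below them, the region of HLA-DMA, which also counts HLA-DMB, lay at 22.9 to 31.0 as group means.

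The class II heterodimer itself was far below its chaperone. In RACK1-WT the density of CD74 stood at percentile 95.9 of 12918 regions, and that of HLA-DRA, at 11.8 ± 2.44, stood at percentile 43.2. HLA-DRB1 was lower still, at 7.17 ± 0.476 in RACK1-WT and 5.66 ± 0.161 in RACK1-Mut, and its libraries did not overlap those of HLA-DRA in either group. The density of CD74 was 26.2 to 132.6 times that of HLA-DRA over the 8 libraries. The highest ratio came from a siControl library with 6 HLA-DRA counts. CIITA and NLRC5 had densities between 0.470 and 2.38 in single libraries. In the RACK1 groups they were the lowest members, and in RACK1-Mut their libraries overlapped. In siControl and siTARG1 the libraries of HLA-DRB1 spanned 0 to 2.03 and overlapped those of CIITA, so these neighbours have no settled order there. The 9 genes together took 0.145% to 0.242% of all coding counts, lowest in siControl and highest in siTARG1.

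**Figure D1:**
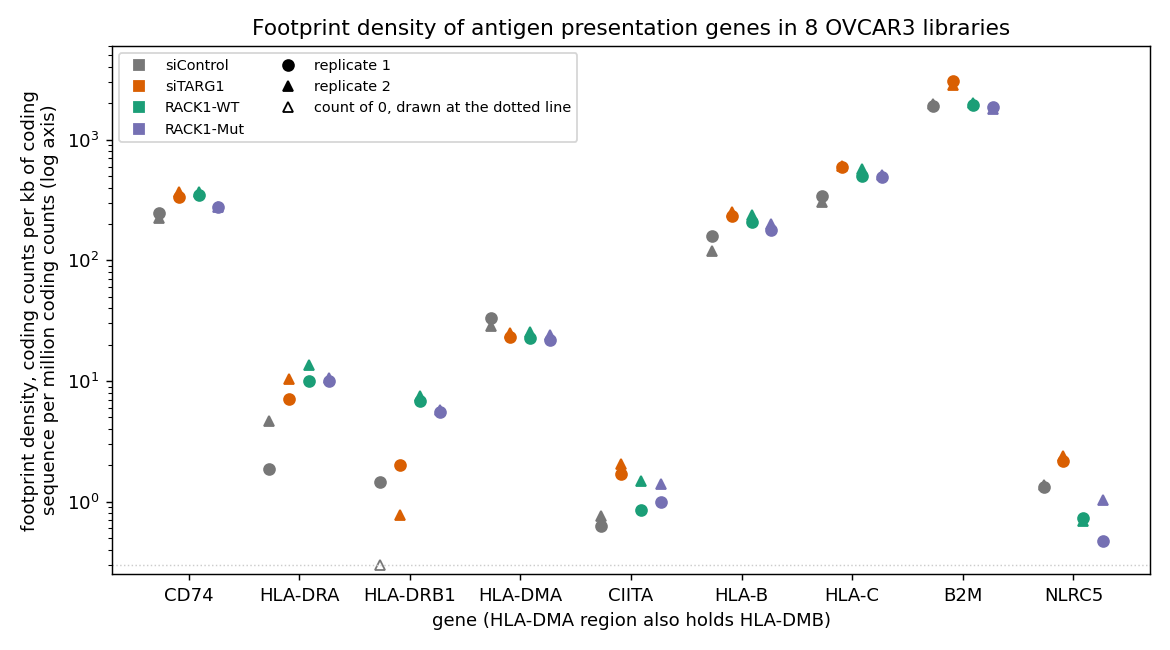
Footprint density of each of the 9 genes (coding counts per kb of coding sequence in a library scaled to 1000000 coding counts, log axis) in the 8 libraries, coloured by group, with circles for replicate 1 and triangles for replicate 2. B2M lies at 1787 to 3066 in every library, CD74 at 224.7 to 371.3, and HLA-DRA at 1.86 to 13.6. The open triangle marks HLA-DRB1 in siControl replicate 2, which had a count of 0.

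CD74 moved the opposite way in the 2 comparisons. CD74 (chromosome 5, 149781200 to 149792532 on GRCh37, minus strand) had normalized counts of 1717 and 1783 in RACK1-WT and of 1337 and 1353 in RACK1-Mut. Both mutant libraries lay below both wild type libraries, with a log2 fold change of -0.38 (SE 0.0861), or 76.9% of the RACK1-WT level. In the siRNA experiment it had 883.3 and 802.2 in siControl and 1143 and 1268 in siTARG1, a log2 fold change of 0.51 (SE 0.107). Again the groups did not overlap. CD74 was the 1 member called in RACK1-Mut versus RACK1-WT (DESeq2, adjusted p under 0.05 over all genes), where 10 of 12520 tested genes, or 0.0799%, were called. That call was lost when any 1 of the 4 libraries was left out, with log2 fold changes of -0.41 to -0.35 in those fits. It was also lost with the replicate number as a block (-0.38). In siTARG1 the call was lost without siTARG1 replicate 2, at a log2 fold change of 0.44.

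The class II chains carried few footprints. HLA-DRA (chromosome 6, 32407655 to 32412823, plus strand), the invariant alpha chain of HLA-DR, had raw coding counts of 51 and 64 in RACK1-WT, 32 and 31 in RACK1-Mut, 6 and 11 in siControl, and 23 and 25 in siTARG1. Scaled for depth these were 39.4 and 52.3 in RACK1-WT and 38.2 and 40.9 in RACK1-Mut, where the groups overlapped. Normalized counts were 5.27 and 13.1 in siControl and 19.1 and 28.1 in siTARG1, so both siTARG1 libraries were higher, by a log2 fold change of 1.39 (SE 0.732) that DESeq2 did not call and edgeR did. The 95% interval of that change ran from -0.04 to 2.83. The estimate was 0.84 without siControl replicate 1 and 2.15 without siControl replicate 2.

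HLA-DRB1 (chromosome 6, 32545679 to 32557625, minus strand), a beta chain of HLA-DR, had 37 and 38 raw counts in RACK1-WT and 19 and 18 in RACK1-Mut. The depth-scaled values were 28.6 and 31.0 against 22.7 and 23.7, a log2 fold change of -0.36 (SE 0.487). In the siRNA experiment its counts were 5 and 0 in siControl and 7 and 2 in siTARG1, too few for an ordered comparison. Its near-identical copies share reads under the many hits per read that the alignment allowed, so HLA-DRB1 and HLA-DRB5 counts are uncertain. HLA-DRB5 itself had 5 to 17 counts in the RACK1 libraries and 0 to 3 in the siRNA libraries. The chains of HLA-DQ had at most 8 counts in any library, and HLA-DPA1 had 1 to 32.

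HLA-DMA (chromosome 6, 32916390 to 32936871, minus strand, the span of this gene alone) and HLA-DMB, the peptide editors of class II, share a merged region. That region stood apart from the other members in the siRNA experiment. It had normalized counts of 196.0 and 165.7 in siControl and of 127.4 and 138.3 in siTARG1, so both siTARG1 libraries were lower. The log2 fold change was -0.45 (SE 0.229), which DESeq2 did not call and the edgeR quasi-likelihood test did. In the RACK1 experiment the values were 184.7 and 201.0 in RACK1-WT against 173.0 and 188.5 in RACK1-Mut, and the groups overlapped. The shares of its alpha and beta chain genes cannot be separated in this merged region.

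Among the class I genes, HLA-C (chromosome 6, 31236526 to 31239907, minus strand) showed the largest difference between siTARG1 and siControl of the 3. Its normalized counts were 1415 and 1261 in siControl and 2346 and 2415 in siTARG1, a log2 fold change of 0.83 (SE 0.0876). HLA-B (chromosome 6, 31321649 to 31334844, minus strand) had 644.2 and 485.2 in siControl and 895.6 and 972.7 in siTARG1, a log2 fold change of 0.72 (SE 0.135). Neither gene's groups overlapped. B2M (chromosome 15, 45003556 to 45011049, plus strand) had 2551 and 2611 in siControl and 3865 and 3622 in siTARG1, a log2 fold change of 0.54 (SE 0.0731). These 3 genes and CD74 were the 4 members called higher, beside 1974 of 12056 genes, or 16.4%, called in either direction in that comparison. Both siTARG1 libraries were above both siControl libraries for 7 of the 9 members, where 31.2% of all tested genes showed that order. HLA-DMA was below in both, and HLA-DRB1 overlapped.

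In RACK1-Mut the class I chains among the members lay slightly lower. Of 4 further class I chains tested, 2 had estimates above 0 and 2 below, with a median of -0.04, and 0 were called. HLA-B had 1164 and 1315 in RACK1-WT and 974.6 and 1088 in RACK1-Mut, a log2 fold change of -0.27 (SE 0.104), not called. B2M had 3559 and 3634 against 3374 and 3222, a log2 fold change of -0.12 (SE 0.0725), not called. HLA-C had 2846 and 3216 against 2737 and 2869, with overlapping groups and a log2 fold change of -0.11 (SE 0.0831). Across the 9 members, both mutant libraries were below both wild type libraries in 4 (CD74, HLA-DRB1, HLA-B and B2M), against 18.9% of all tested genes. The median log2 fold change over the 9 was -0.12, beside -0.00168 over all genes tested, and 0.72 in siTARG1, beside 0.00315.

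**Figure D2:**
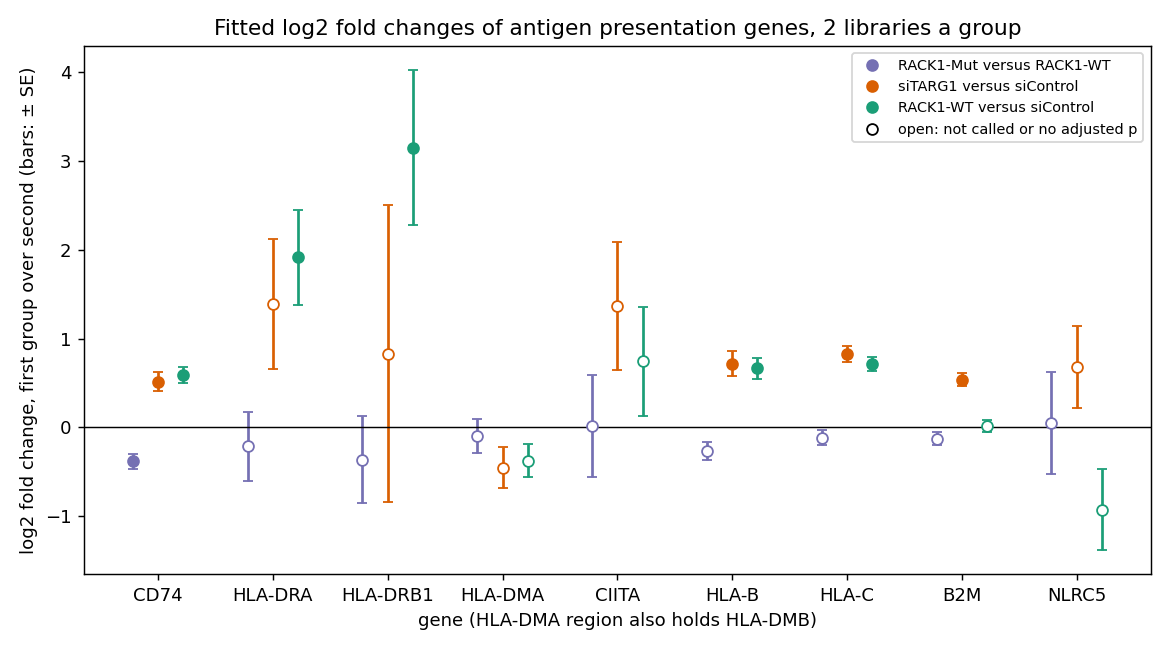
Log2 fold changes of the 9 genes fitted by DESeq2 (points, with bars for ± SE) in 3 comparisons of 2 libraries against 2, filled where the gene was called. CD74 is the filled point below 0 for RACK1-Mut versus RACK1-WT (-0.38), and CD74, HLA-B, HLA-C and B2M are the filled points for siTARG1 versus siControl (0.51 to 0.83).

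Because the class I heavy chains resemble each other, their regions were also considered as 1 set. HLA-C held 41.3% to 51.4% of the coding counts on the 5 regions HLA-B, HLA-C, HLA-E, HLA-F and HLA-G. Its share was 41.3% and 41.6% in siControl and 51.4% and 49.6% in siTARG1, while that of HLA-E, which shows leader peptides of other heavy chains to natural killer cells, was 31.3% and 33.6% in siControl and 20.5% and 22.2% in siTARG1. The siRNA groups did not overlap in either share. A share also falls when counts on the other regions rise. The normalized counts of HLA-E itself were 1047 ± 38.8 in siControl and 1008 ± 101.8 in siTARG1 (mean ± SD, n = 2). In the RACK1 experiment the share of HLA-C differed little, at 46.6% in both RACK1-WT libraries and 45.7% and 45.9% in RACK1-Mut. The share of HLA-E was higher in RACK1-Mut, at 28.1% and 27.9% against 25.3% and 25.2% in RACK1-WT. That of HLA-B was lower, at 16.3% and 17.4% in RACK1-Mut against 19.05% and 19.06% in RACK1-WT. The RACK1 groups did not overlap in any of these shares. They did overlap in the normalized counts of HLA-E itself, at 1641 ± 134.1 in RACK1-WT and 1715 ± 44.9 in RACK1-Mut. With these 5 regions summed into 1 feature, an alternative chosen after seeing the data, the log2 fold change was 0.55 in siTARG1. Alone, HLA-B had 0.72 and HLA-C 0.83. The sum contains both of these members, which were chosen from the same counts, so its call by DESeq2 carries no test. In RACK1-Mut the log2 fold change of the sum was -0.09, not called, against -0.27 for HLA-B and -0.11 for HLA-C alone. B2M had 3.49 to 6.43 times the density of HLA-C, with the highest ratios in siControl (5.60 and 6.43).

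**Figure D3:**
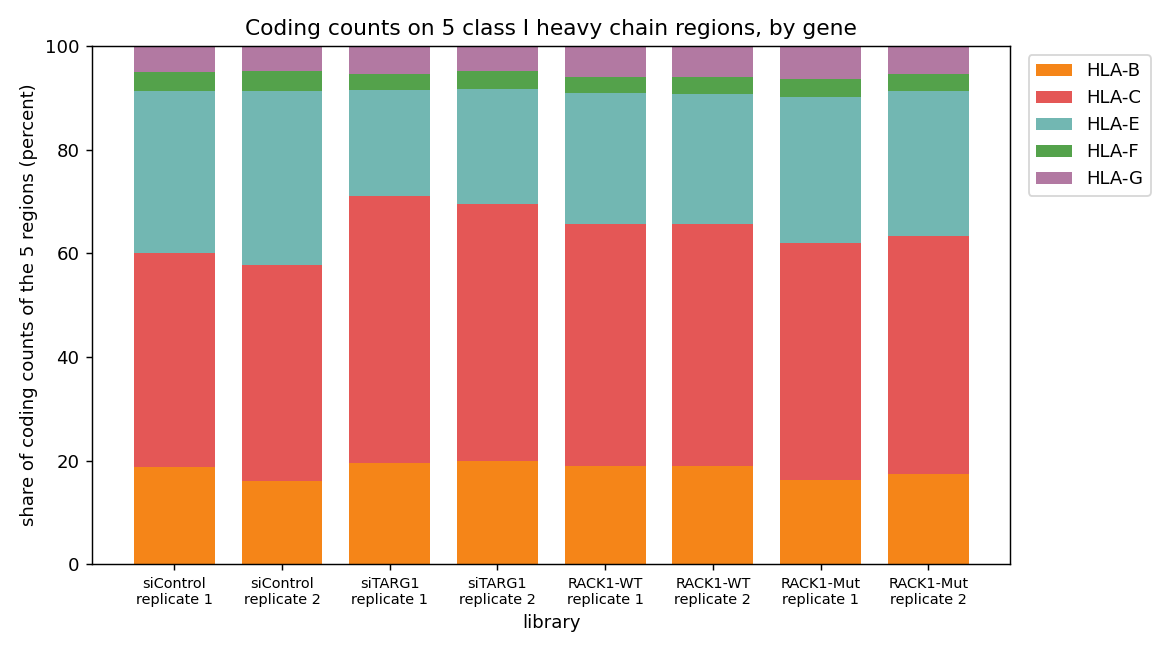
Share of the coding counts on 5 class I heavy chain regions taken by each gene (percent, stacked to 100) in each of the 8 libraries. HLA-C takes 51.4% and 49.6% in the siTARG1 libraries and 41.3% and 41.6% in the siControl libraries. Reads shared between near-identical copies make the split uncertain.

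The transactivators were near the limit of what this depth can resolve. CIITA (chromosome 16, 10960079 to 11036878, plus strand) had raw counts of 9 and 8 in siControl, 24 and 22 in siTARG1, 19 and 31 in RACK1-WT, and 14 and 18 in RACK1-Mut. Both siTARG1 libraries were higher after scaling, at 19.98 and 24.7 against 7.91 and 9.54, a log2 fold change of 1.36 (SE 0.719) that DESeq2 did not call and edgeR did. The RACK1 groups overlapped, with a log2 fold change of 0.01 (SE 0.575).

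NLRC5 (chromosome 16, 57023397 to 57117443, plus strand) had normalized counts of 27.2 and 28.6 in siControl and 42.5 and 47.2 in siTARG1, a log2 fold change of 0.68 (SE 0.458) that was not called. In RACK1-Mut it had 13.1 and 29.0, which enclosed the 20.9 and 19.6 of RACK1-WT. Neither transactivator differed between RACK1-Mut and RACK1-WT beyond the spread of its libraries, and the 95% intervals, -1.11 to 1.14 for CIITA and -1.07 to 1.17 for NLRC5, leave room for changes larger than that of CD74.

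Footprints of the members lay almost wholly in coding sequence. Pooled over the 8 libraries, the 3′ UTR held 0.312% of the exon counts of CD74, 0.166% of those of HLA-B, 0.293% of those of HLA-C and 0.425% of those of B2M. HLA-DRA and HLA-DRB1 had no footprint in the 3′ UTR among 244 and 127 exon counts. The 5′ UTR held 5.69% of the counts of NLRC5, or 14 footprints, 2.27% of those of the HLA-DMA region and 0.389% of those of B2M. The 5′ UTR of CD74 in these tables is 2 nt long, so it could not show footprints upstream of the start codon.

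To see whether the rest of the pathway moved with the 9 genes, 83 further regions were taken from 8 gene lists, of which 74 were tested in the RACK1 comparison and 71 in the siRNA comparison. In RACK1-Mut versus RACK1-WT, 3 of 74 were called, all lower, 48 estimates were below 0 and the median log2 fold change was -0.08. Over all tested genes, 0.0799% were called there. In siTARG1 versus siControl, 14 of 71 were called higher and 8 lower, with a median of 0.21, beside 16.4% of all tested genes called in either direction. The lists had been written with earlier results of these libraries known.

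In RACK1-Mut the called genes included 2 interferon-stimulated genes. IFI6, an interferon-induced mitochondrial protein, had 2066 and 2097 in RACK1-WT against 1414 and 1560 in RACK1-Mut, a log2 fold change of -0.49 (SE 0.0865, DESeq2 adjusted p 5.93e-05). IFI27, another interferon-induced gene, had 537.2 and 564.6 against 367.4 and 384.9, a log2 fold change of -0.55 (SE 0.131, DESeq2 adjusted p 0.033). In each of these genes both mutant libraries were below both wild type libraries. Of 16 interferon-stimulated genes tested, 2 were called lower, beside 0.0799% of all tested genes called, and 15 had estimates below 0, with a median of -0.31. Of 14 genes of class I peptide supply and loading, 12 had estimates below 0 (median -0.11), and of 7 MHC transcription factors other than CIITA and NLRC5, 5 had estimates above 0 (median 0.13). In either list both DESeq2 and edgeR called 0, and unadjusted p-values under 0.05 numbered 0. The calls of IFI6 and IFI27 were lost when any 1 library was left out.

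In siTARG1, where HLA-B, HLA-C and B2M were higher, DESeq2 called 6 of 14 genes of class I peptide supply and loading higher. Of all tested genes, 16.4% were called in either direction. DESeq2 called 0 of the 14 lower, where edgeR called 1 lower and 7 higher and 8 had an unadjusted p under 0.05. The median log2 fold change was 0.34, beside 0.00315 for all genes. PSMB9, a catalytic subunit of the immunoproteasome that cuts peptides for class I, had 68.6 and 66.8 in siControl and 169.0 and 141.7 in siTARG1, a log2 fold change of 1.20 (SE 0.274, DESeq2 adjusted p 0.000207). The other called genes were ERAP1, which trims peptides in the endoplasmic reticulum, the region of the peptide transporter subunit TAP2 (which also counts HLA-DOB), the bridging chaperone TAPBP, and the folding factors CANX and PDIA3, with log2 fold changes of 0.29 to 0.50. Among further class I heavy chains, HLA-G rose from 174.0 and 149.0 to 251.4 and 235.0, a log2 fold change of 0.59 (SE 0.203, DESeq2 adjusted p 0.0265).

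Of 9 further regions of class II loading and the endosomal route tested in siTARG1, DESeq2 called 3 higher and 1 lower. The region of TAP2 and HLA-DOB was among the 3. Estimates were above 0 for 7 of the 9, with a median log2 fold change of 0.46, and edgeR called 6 higher and 1 lower. CTSL, a cathepsin that degrades the invariant chain, had 76.5 and 95.4 in siControl and 176.5 and 165.3 in siTARG1, a log2 fold change of 1.00 (SE 0.256, DESeq2 adjusted p 0.00117). LGMN, an asparaginyl endopeptidase of lysosomes, rose too (0.50), whereas the cathepsin CTSB fell (-0.53). Among subunits of the Y box factor NF-Y, NFYB and NFYA moved apart, and DESeq2 did not call NFYC. Its normalized counts were 280.9 ± 46.5 in siControl and 357.0 ± 15.2 in siTARG1 (mean ± SD, n = 2). NFYB had 68.6 and 71.5 in siControl and 159.8 and 214.8 in siTARG1, a log2 fold change of 1.42 (SE 0.268, DESeq2 adjusted p 3.66e-06), while NFYA had 122.2 and 119.2 against 63.3 and 63.0, a log2 fold change of -0.94 (SE 0.292, DESeq2 adjusted p 0.0117).

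The interferon-stimulated genes went both ways in siTARG1, with 3 of 16 called higher and 5 lower, beside 16.4% of all tested genes called. IFI27 had 350.7 and 308.7 in siControl and 642.6 and 629.7 in siTARG1, a log2 fold change of 0.94 (SE 0.139, DESeq2 adjusted p 6.62e-10). BST2, a tethering factor for enveloped viruses, had 706.6 and 596.0 against 233.1 and 290.1, a log2 fold change of -1.33 (SE 0.157, DESeq2 adjusted p 3.59e-15). The guanylate-binding proteins GBP2 (-1.06) and GBP1 (-0.65) and IFI44 (-0.57), interferon-induced genes as well, also fell. Interferon signalling genes had 1 of 14 called, beside the same 16.4%, namely STAT2, which was lower (-0.32). Of 7 class I-like molecules, such as the stress ligands MICA and MICB, DESeq2 called 0 in either comparison, none had an unadjusted p under 0.05, and edgeR called 1 higher in siTARG1 and 0 in RACK1-Mut. Of the 9 epithelial markers, 3 were called lower in siTARG1, 2 higher and 4 not, beside the same 16.4% of all tested genes called. KRT8 (-1.03), KRT18 (-1.24) and WT1 (-1.15) were lower and CDH1 (1.64) and KRT7 (0.47) higher. The part of that shift in the results for antigen presentation was not tested.

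**Figure D4:**
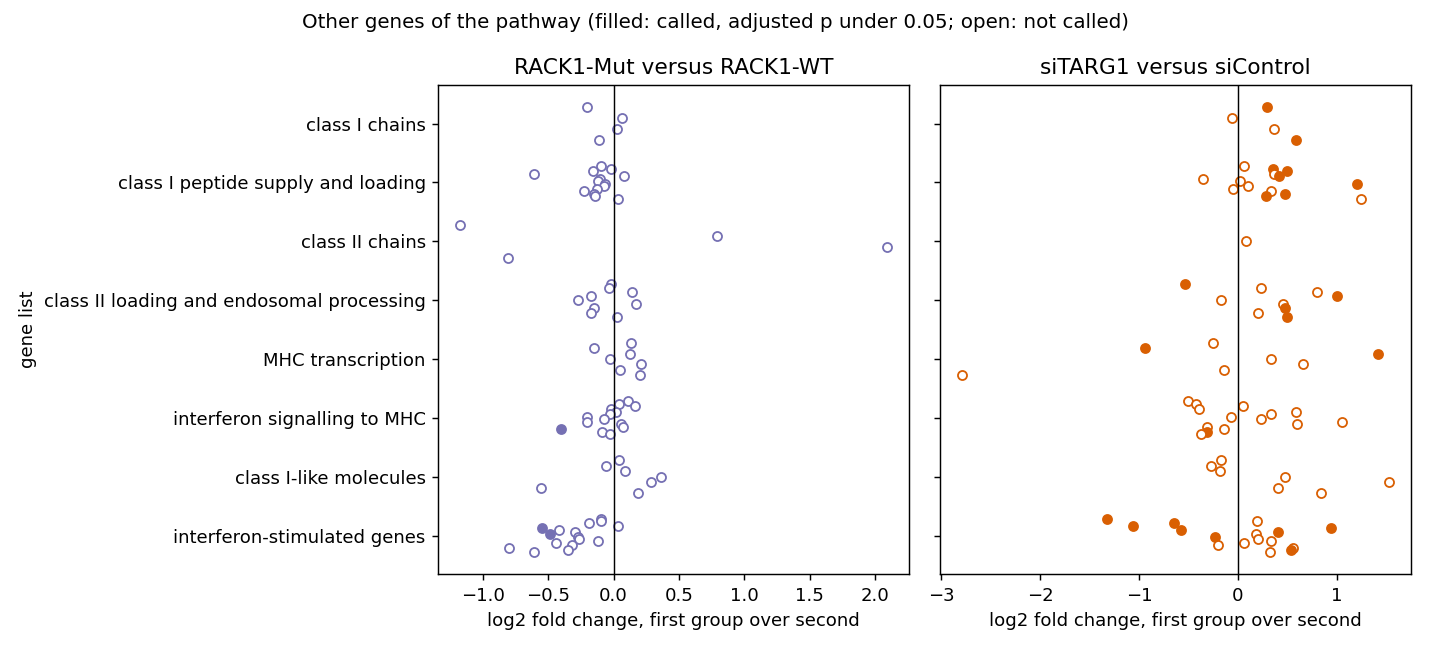
Log2 fold changes of the genes of 8 lists other than the 9 members in RACK1-Mut versus RACK1-WT (left) and siTARG1 versus siControl (right), 1 point a gene, filled where called. The region of TAP2 and HLA-DOB is drawn in the lists of both genes. On the left 3 genes are filled, all below 0, and on the right 6 of 14 genes of class I peptide supply and loading are filled, all above 0.

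The groups that served as references also differed in these genes. RACK1-WT and siControl come from separate experiments that differ in vectors, doxycycline, RACK1 knockdown and transfection, which cannot be told apart, and both groups already serve in the comparisons above. In a fit of all 8 libraries, 5 of the 9 members were called higher in RACK1-WT, beside 4398 of 12955 genes, or 33.9%, called in either direction. CD74 had a mean normalized count of 1481 ± 38.1 in RACK1-WT and 982.1 ± 66.2 in siControl, a log2 fold change of 0.59 (SE 0.0879). HLA-DRA had 38.8 ± 7.66 and 10.7 ± 6.47, a log2 fold change of 1.92 (SE 0.533). HLA-DRB1, with 37 and 38 raw counts in RACK1-WT and 5 and 0 in siControl, had a log2 fold change of 3.15 (SE 0.873). HLA-B (0.67) and HLA-C (0.71) were also higher. Their light chain was level, with 3044 ± 41.3 for B2M in RACK1-WT and 3007 ± 51.2 in siControl. NLRC5 lay lower in RACK1-WT, with 17.1 ± 0.771 against 32.5 ± 1.14, a log2 fold change of -0.92 (SE 0.457) that DESeq2 did not call. The edgeR quasi-likelihood test called 7 members, with NLRC5 and HLA-DMA (-0.38) lower in addition. The calls of HLA-DRA and HLA-DRB1 were each lost when a single library was left out. HLA-DRA lost it without siControl replicate 1 (1.34) or RACK1-WT replicate 2 (1.69), and HLA-DRB1 without siControl replicate 2 (2.30). Without siControl replicate 1 the only siControl library left had 0 counts of HLA-DRB1, so the fitted 6.62, still called, gives no size.

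Other genes of the lists were split in that comparison as well. CTSB (1.73) and CTSL (1.55), the natural killer cell ligand ULBP2 (1.74) and HLA-DRB5 (3.17, from 17 and 16 counts against 0 and 2) were higher in RACK1-WT, and so was the peptide editor of class I TAPBPL (1.46). IFI44L (-2.21), IFIT1 (-1.94), GBP2 (-1.76), GBP1 (-1.53) and DDX58 (-1.50), all interferon-stimulated, were lower. Of 16 interferon-stimulated genes, 12 were called lower, beside 33.9% of all tested genes called in either direction. In the same comparison HLA-B, HLA-C and CD74 were called higher, B2M was level, and NLRC5 and HLA-DMA lay lower without a DESeq2 call. Any link between these genes and the interferon-stimulated list was not tested. Of the 9 markers of ovarian epithelial carcinoma, 5 were called higher in RACK1-WT and 4 lower, beside the same 33.9%. Their log2 fold changes ran from -1.33 to 2.87. The part of these marker differences in the results for antigen presentation was not tested.

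The genes whose footprint counts followed CD74 most closely were sought over the 8 libraries, with log2 normalized counts centred within each experiment, among 6717 genes whose normalized counts averaged 100 or more. They were LETM1 (Pearson r 0.986), ATF4 (0.977), IFI27 (0.977), XPNPEP1 (0.976) and KRT7 (0.975). LETM1 is a protein of the inner mitochondrial membrane, ATF4 is the transcription factor of the integrated stress response, XPNPEP1 is an aminopeptidase and KRT7 is a keratin of simple epithelia. The 8 points fall into 4 groups of 2, so the coefficients largely restate the same 2 differences between groups. Other genes of the pathway further down included the transporter subunit TAP1 (0.956, rank 14), the viral RNA sensor OAS3 (0.949, rank 24), TAPBP (0.946, rank 29) and HLA-B (0.931, rank 49). HLA-C ranked at 188 and B2M at 225. Pathway genes with negative coefficients included the HLA-DMA region (-0.48), CTSB (-0.72), NFYA (-0.67), BST2 (-0.68) and GBP2 (-0.77), so the pathway did not follow CD74 as a whole.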

How the data were processed

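The 8 Ribo-seq libraries were grouped by their sample titles. Per the labels and methods, the authors removed linkers, identifiers and barcodes, discarded rRNA reads with Bowtie 1.1.2 and aligned the rest to transcripts with TopHat2 2.1.1, allowing many hits per read. Whether identifiers were collapsed is not given in the sources used here. With Plastid, the authors counted footprints per region on hg19 (GRCh37, GENCODE 24), and these raw counts are what was deposited. The file headers record reads of 26 to 36 nt placed 14 nt in from the 5′ end. The methods state an offset from the 3′ end instead. The authors' RPKM columns were not used. Region lengths came from the same tables, and symbols from GENCODE 44 on GRCh37, found for 19612 of 20165 regions.

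Coding counts were fitted with DESeq2 1.42.0 (R 4.3.3), as in the methods, on the 4 libraries of a comparison, or on all 8 for RACK1-WT versus siControl. Genes with at least 10 counts in sum were tested, and those with a Benjamini-Hochberg adjusted p below 0.05 over all of them are the called genes. The fit was tested on simulated data with a fixed dispersion. Effects were planted only in genes with ample counts and were larger than most of those described here. That test therefore does not cover small changes or low counts. Normalized counts are counts divided by the size factors of the fit. Alternatives were edgeR 4.0.16, TMM factors, other filters, exon counts, summed HLA copies (5 class I regions, and the HLA-DRB regions, a set chosen after seeing the data), all 8 libraries, the replicate number as a block and leaving out each library. P-values set a fitted difference against the spread between libraries as each fit estimates it. The methods describe these libraries as independent biological samples.

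Members and lists were chosen with earlier results of these data known. Beside the members, OARD1 and RACK1, the rule names the 5 called list genes with the largest rise and the 5 with the largest fall in each comparison, and the 5 genes most like CD74. Other list genes, HLA-E, CD14 and the remaining markers were named after their values were seen. No symbol matched for HLA-DRB3, HLA-DRB4, IFIH1 and ISG15, and DDX58 was matched through its current symbol. IRF9, IFNAR2, IFI30, TAP2 and HLA-DMA share a merged region with another gene. Promoter entries are RefSeq's, on GRCh38.p14, a build other than that of the gene spans, and no coordinate was converted. Some called genes of the lists, and an earlier planned sum over a wider set of class I regions, are not reported here.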

Additional observations from a re-analysis of the deposited data

How the results depend on the processing

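In RACK1-Mut versus RACK1-WT, 1 member was called, and 0 were called with the replicate number as a block or with any 1 of the 4 libraries left out (0 to 0), while the log2 fold change of CD74 stayed at -0.41 to -0.35. The 3 further pathway genes called became 5 with edgeR, 1 with the replicate block and 0 to 0 with a library left out. Fewer samples remain in those last fits. In siTARG1 versus siControl, edgeR called 7 members in place of 4 (HLA-DRA and CIITA higher and HLA-DMA lower in addition) and 35 further pathway genes in place of 22, and 9 to 12 of the latter were called with a library left out. The 5 members called in RACK1-WT versus siControl became 3 when at least 10 counts were required in every library, which removes HLA-DRA and HLA-DRB1 from the test. With edgeR they became 7. The cause of the other changes was not tested. Directions turned for low counts only, B2M apart. NLRC5 in RACK1-Mut versus RACK1-WT moved from 0.05 to -0.047 with exon counts and to -0.031 with the replicate block. With a library left out it ran from -0.62 to 0.52, CIITA from -0.33 to 0.46 and HLA-DRA from -0.40 to 0.0032. HLA-DRB1 in siTARG1 ran from -0.11 (without siControl replicate 2) to 1.37, and B2M in RACK1-WT versus siControl from -0.0013 to 0.034. Replicate numbers did not pair the libraries (correlation over genes of the differences between replicates 0.083 in the RACK1 and 0.031 in the siRNA experiment), and the replicate block changed no other call of a member. Without division by length, 2 to 4 of the 9 members changed rank by level. At this depth, CIITA, NLRC5, HLA-DRB1 and HLA-DRA, with 0 to 64 counts per library, had standard errors of at least 0.391 in both main comparisons.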
